A study of Mus musculus with 17 samples.

Results

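The cholesterol synthesis enzymes Hmgcs1, Idi1, Fdps, Fdft1, Sqle, Lss, Cyp51 and Dhcr7 were followed in the skeletal muscle of diabetic and bezafibrate-treated mice. They are 8 of 19938 genes that have a probe set naming 1 gene symbol, and were picked by name for their place in the pathway, with earlier results of these data known. Where a gene had several such probe sets, the one with the highest mean over all arrays was read. RNA of 17 male C57BL/6N mice, wildtype and 5 to 6 months old, was hybridised to 1 Affymetrix Mouse Gene 1.0 ST array each. STZ,BEZ mice (n = 5) had received streptozotocin (STZ), which destroys pancreatic beta cells, and then ate chow with bezafibrate (BEZ), a fibrate drug that activates the PPAR nuclear receptors. STZ,SD mice (n = 5) had received streptozotocin and ate standard diet (SD), and Con,SD mice (n = 7) were mock-injected with citrate buffer and ate standard diet. By the labels, 65 mg/kg of streptozotocin was injected on 5 days in mice aged 10 to 16 weeks, and bezafibrate at 0.25% or 0.5% of the chow began 2 weeks later and lasted 8 weeks. The study's methods differ from the labels on the streptozotocin dose and the control injection and give only the higher bezafibrate strength, so whether some of these mice ate the lower one is unclear from the sources used here, which also do not name the muscle sampled. None of the 17 arrays was labelled as bezafibrate without streptozotocin, so on these muscle arrays the drug was compared only within diabetic mice.

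The mevalonate pathway builds sterols from acetyl-CoA: short isoprenoid units are joined to farnesyl diphosphate, squalene is formed and closed into lanosterol, and lanosterol is trimmed to cholesterol. Its enzymes are known as targets of the transcription factors Srebf2 and Srebf1, which are released from the endoplasmic reticulum when membrane sterol is low and are held there by the Insig proteins when it is high. Insulin is known to raise Srebf1 in liver, and skeletal muscle uses the same pathway for membrane cholesterol, ubiquinone and prenylated proteins.

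On GRCm38.p6 the members lie apart from each other except that Hmgcs1 and Idi1 share chromosome 13. In pathway order they are Hmgcs1 at chr13:119690351-119708260 (probe set 10412466), Idi1 at chr13:8885606-8892396 (10482762), Fdps at chr3:89093588-89101967 (10499483), Fdft1 at chr14:63145150-63181687 (10420730), Sqle at chr15:59315092-59331193 (10424349), Lss at chr10:76531565-76557139 (10364194), Cyp51 at chr5:4080674-4104697 (10527920) and Dhcr7 at chr7:143823167-143848410 (10559312). Idi1 and Fdft1 each had a second probe set, 10403413 and 10412909, whose differences are given with theirs. An array value cannot be compared between genes, so levels are compared only between mice.

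The promoter windows of Hmgcs1, Cyp51 and Dhcr7 are shown because sterol regulation of the pathway is known to act at such sites and because Cyp51 and Dhcr7 passed the test below. RefSeq windows on GRCm38.p6, each running from 250 bases before to 50 bases after a start site, were on hand for 5 of the 8 members (Hmgcs1, Idi1, Lss, Cyp51 and Dhcr7). The start site is the annotated start of the gene for those shown, while the Lss window belongs to a start inside the gene. Dhcr7 had 3 windows, of which the one at the start of the gene is shown. Capitals mark every match, on either strand, to 3 motifs: the sterol regulatory element (SRE) TCACNCCAC, the CCAAT box CCAAT, and the GC box GGGCGG. The windows lie at chr13:119690101-119690400 on the plus strand (Hmgcs1), chr5:4104648-4104947 on the minus strand (Cyp51) and chr7:143822917-143823216 on the plus strand (Dhcr7), and are written 5′ to 3′ along the gene.
Hmgcs1: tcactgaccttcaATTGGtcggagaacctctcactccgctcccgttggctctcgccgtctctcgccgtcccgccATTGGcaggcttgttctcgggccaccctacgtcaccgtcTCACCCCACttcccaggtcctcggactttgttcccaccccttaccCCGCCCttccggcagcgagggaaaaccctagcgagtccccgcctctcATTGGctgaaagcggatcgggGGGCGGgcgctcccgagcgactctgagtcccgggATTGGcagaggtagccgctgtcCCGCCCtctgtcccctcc
Cyp51: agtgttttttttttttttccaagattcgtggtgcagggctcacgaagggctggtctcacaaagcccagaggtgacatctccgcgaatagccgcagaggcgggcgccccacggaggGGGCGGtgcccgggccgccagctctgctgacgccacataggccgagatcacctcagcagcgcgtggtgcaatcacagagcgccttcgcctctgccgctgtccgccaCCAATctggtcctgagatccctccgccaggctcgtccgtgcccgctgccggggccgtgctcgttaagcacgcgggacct
Dhcr7: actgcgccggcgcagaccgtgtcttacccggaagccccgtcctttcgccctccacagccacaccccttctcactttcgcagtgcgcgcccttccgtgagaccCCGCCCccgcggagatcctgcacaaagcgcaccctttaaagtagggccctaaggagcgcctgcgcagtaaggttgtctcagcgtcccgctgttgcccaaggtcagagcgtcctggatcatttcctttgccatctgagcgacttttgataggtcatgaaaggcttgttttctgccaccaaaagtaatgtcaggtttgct
The Hmgcs1 window held 1 match to the SRE letters, which began 137 bases before the start of the gene, with 4 CCAAT boxes and 3 GC boxes. In the Cyp51 window there were 1 CCAAT box and 1 GC box, and in the Dhcr7 window 1 GC box, with no match to the SRE letters in either. The second Dhcr7 window, chr7:143823149-143823448, held none of the 3 motifs, and the third, chr7:143829964-143830263, held 2 CCAAT boxes and 3 GC boxes and no SRE letters. Nor did the windows of Idi1 and Lss hold those letters. No base of these windows lay in more than 1 motif. Over the 32817 promoter windows of this length, 1.24% held the SRE letters, 37.4% a CCAAT box and 35.6% a GC box. A match describes the letters of the window and is not a measured binding site. The search used 1 pattern for the SRE, so a window without a match may still hold a site with other letters.

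The arrays carried muscle RNA: the mean log2 level of 12 skeletal muscle markers, Ckm and Acta1 among them, lay between 13.31 and 13.53 on all 17 arrays. Con,SD array 1 stood apart from the others. It was the highest of the 17 arrays for 13 of 13 hepatocyte markers and for 12 of 12 testis germ cell markers, and for 0 of 12 skeletal muscle, 0 of 10 adipocyte, 0 of 10 Schwann cell and 0 of 11 macrophage markers. Its mean hepatocyte level was 11.57, against 7.29 to 9.52 on the other 6 Con,SD arrays, and its testis level was 8.63, against 5.71 to 6.17. Hepatocyte levels also moved with the groups, at 7.11 to 7.87 in STZ,BEZ, 7.66 to 8.67 in STZ,SD and 7.29 to 9.52 in Con,SD without array 1. Alb had a median log2 value of 11.5 and a highest of 13.02 over the remaining 16 arrays, against 13.79 on Con,SD array 1. Liver also makes cholesterol, and the part of liver or testis RNA in the results was not tested beyond the values given, so the members' comparisons with Con,SD are given with and without array 1.

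**Figure D1:**
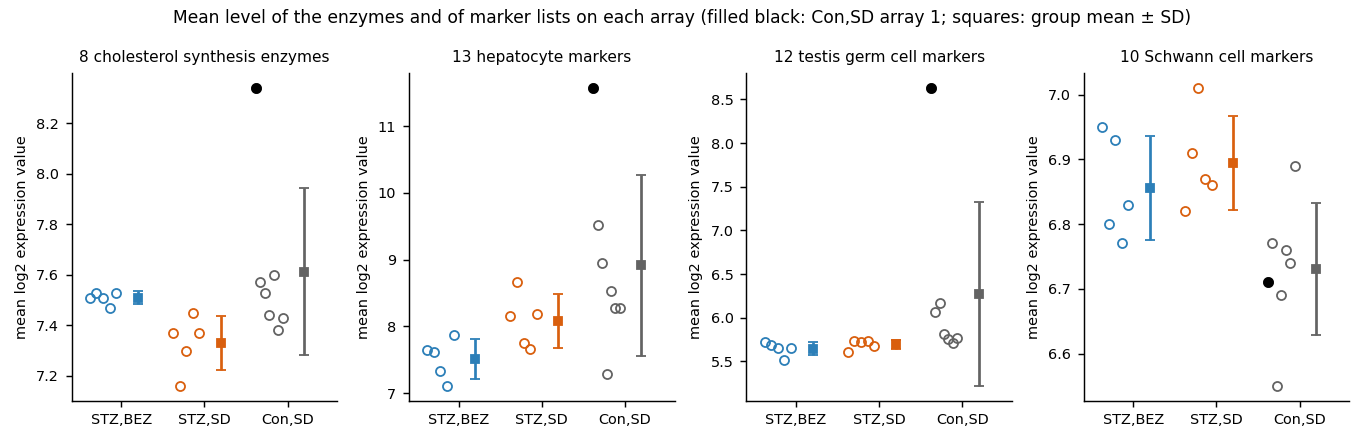
Mean log2 expression value of the 8 cholesterol synthesis enzymes, 13 hepatocyte markers, 12 testis germ cell markers and 10 Schwann cell markers on each array; circles are mice, squares with bars the group mean ± standard deviation, and the filled black circle Con,SD array 1. That array lies at 8.34 for the enzymes, 11.57 for hepatocyte and 8.63 for testis markers, above every other array, but within its group for Schwann cell markers.

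The enzymes themselves followed that array. Con,SD array 1 was the highest of the 17 arrays for 7 of the 8 members, against 11.2% of all genes. The excess over the mean of the other 6 Con,SD arrays was largest for Sqle, at 1.61 on the log2 scale or 3.05-fold, and for Idi1, at 1.53 or 2.9-fold. It was smaller for Cyp51 (0.88), Fdps (0.84), Lss (0.66), Hmgcs1 (0.54) and Dhcr7 (0.54), and smallest for Fdft1 (0.22), the single member whose highest array was another. Across the 7 Con,SD arrays, Pearson's r between a member and the hepatocyte level ran over the members between 0.74 and 0.95, with exact two-sided permutation p-values between 0.00556 and 0.14 and adjusted p-values over 32 pairs of member and marker list between 0.0582 and 0.28. Spearman's rho lay between 0 and 0.82, with exact permutation p-values between 0.0341 and 1 and adjusted p-values between 0.403 and 1. Without the 2 arrays farthest from the median hepatocyte level, r stayed above 0 for 6 members, at 0.37 (Hmgcs1) to 0.78 (Cyp51), and was below 0 for Dhcr7 (-0.13) and Lss (-0.7). For those 2 members the relation rested on the arrays left out, and for the other 6 it was smaller without them. For the testis level r lay between 0.81 and 0.99 (exact permutation p between 0.00734 and 0.116, adjusted between 0.0582 and 0.247), rho between 0.11 and 0.86 (exact permutation p between 0.0238 and 0.84, adjusted between 0.403 and 0.927), and r without the 2 farthest arrays between -0.42 (Lss) and 0.85 (Cyp51), below 0 for Lss only. For the adipocyte level r lay between -0.23 and 0.25 and for the Schwann cell level between -0.36 and 0.16, with no adjusted exact permutation p under 0.76; rho lay between -0.43 and 0.54 and between -0.54 and 0.57 (adjusted exact permutation p of at least 0.569), and r without the 2 farthest arrays between 0.14 and 0.79 and between -0.6 and 0.02.

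Streptozotocin diabetes was the first comparison, between STZ,SD and Con,SD muscle. Fdps, Cyp51 and Dhcr7 fell in STZ,SD mice, Fdft1 rose, and Hmgcs1, Idi1, Sqle and Lss did not pass the test, which was limma's moderated test on log2 values with a Benjamini-Hochberg adjusted p under 0.1 over all 19938 genes. Thus 3 of 8 members were called lower and 1 higher. Over all genes 25.8% were called, 11.9% lower and 13.9% higher, so the share of members called lower was above the share of all genes and rests on 3 genes. The median log2 difference of the 8 members was -0.35, against -0.0095 over all genes. Without Con,SD array 1 the calls were on the same 4 members, the median was -0.2, and 27.2% of all genes were called, 13.7% lower and 13.5% higher.

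Fdps, which joins isoprenoid units into farnesyl diphosphate, showed the clearest difference. Its log2 values were 8.28, 8.06, 8.20, 8.60 and 8.53 in STZ,SD, against a lowest value of 8.61, a median of 8.88 and a highest of 9.71 in Con,SD. The groups did not overlap, although the highest STZ,SD mouse lay just under the lowest Con,SD mouse. Among all genes 3.43% had STZ,SD values that all lay below Con,SD, and Fdps was the single member to do so. Its log2 difference was -0.65 ± 0.14 (standard error), a level 1.57-fold lower in STZ,SD, with an adjusted p of 0.00421 in limma. Without Con,SD array 1 it was -0.53 ± 0.1 (limma adjusted p = 0.00141), still with no overlap.

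Upstream of Fdps lie Hmgcs1, the cytosolic synthase that makes HMG-CoA, and Idi1, the isomerase of the isoprenoid unit. Hmgcs1 measured 8.01, 7.31, 7.63, 8.03 and 7.86 in STZ,SD, against 7.77, 8.04 and 8.55 as lowest, median and highest values in Con,SD. Arrays 2 and 3 of STZ,SD lay below every Con,SD mouse and the other 3 lay within the Con,SD range. The log2 difference was -0.32 ± 0.13, and its adjusted p in limma, 0.1002, just missed the threshold; without Con,SD array 1 it was -0.24 ± 0.12 (limma adjusted p = 0.153). Idi1 measured 6.71, 6.00, 6.28, 6.51 and 6.35 in STZ,SD, against 6.34, 6.59 and 8.06 as lowest, median and highest values in Con,SD. The ranges overlapped apart from STZ,SD arrays 2 and 3, which were the lowest. Its log2 difference of -0.37 ± 0.22 (limma adjusted p = 0.269) came to -0.15 ± 0.12 (0.387) without Con,SD array 1. A second probe set of Idi1 gave -0.43 ± 0.24 with all arrays. Its limma adjusted p over all probe sets was 0.241, against 0.296 for the first probe set in the same fit.

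Fdft1, the squalene synthase that commits farnesyl diphosphate to sterols, went the other way. Its values were 10.93, 11.29, 11.20, 10.72 and 10.84 in STZ,SD, against 10.62, 10.79 and 10.96 as lowest, median and highest values in Con,SD. STZ,SD arrays 2 and 3 lay above all Con,SD mice and the other 3 lay within their range. The log2 difference was 0.23 ± 0.09 (limma adjusted p = 0.0886) and 0.26 ± 0.09 without Con,SD array 1 (0.0512). This call was lost in 20 of 31 alternative settings, and a second Fdft1 probe set gave 0.12 ± 0.12 (limma adjusted p = 0.531 over all probe sets).

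Sqle, the squalene epoxidase, and Lss, which closes its product into lanosterol, did not pass the test. Sqle measured 5.99, 5.79, 6.41, 6.46 and 6.39 in STZ,SD, against 5.92, 6.42 and 7.92 as lowest, median and highest values in Con,SD. Apart from Con,SD array 1 the groups covered nearly the same range. The log2 difference of Sqle was -0.33 ± 0.24 (limma adjusted p = 0.366; 95% interval -0.84 to 0.18) with all arrays and -0.1 ± 0.14 without Con,SD array 1 (0.65; -0.39 to 0.19). Lss measured 6.18, 6.40, 6.38, 6.19 and 6.21 in STZ,SD, against 6.12, 6.18 and 6.85 as lowest, median and highest values in Con,SD. STZ,SD arrays 2 and 3 were the highest of their group for Lss. Its log2 difference was -0.019 ± 0.11 (limma adjusted p = 0.921; 95% interval -0.24 to 0.2) and 0.075 ± 0.069 without Con,SD array 1 (0.472; -0.068 to 0.22).

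Cyp51 and Dhcr7 act on the sterol ring, Cyp51 as the demethylase of lanosterol and Dhcr7 as the reductase whose product is cholesterol. Cyp51 measured 5.64, 5.58, 5.57, 5.68 and 5.45 in STZ,SD, against 5.64, 5.93 and 6.75 as lowest, median and highest values in Con,SD. The STZ,SD mice lay close together at the foot of the Con,SD range, with overlap at its lowest mouse. The log2 difference was -0.41 ± 0.13 (limma adjusted p = 0.0397) and -0.29 ± 0.081 without Con,SD array 1 (0.0176). Dhcr7 measured 7.22, 6.88, 6.76, 7.37 and 7.30 in STZ,SD, against 7.29, 7.44 and 7.95 as lowest, median and highest values in Con,SD. STZ,SD arrays 1, 2 and 3 lay below every Con,SD mouse. Its log2 difference was -0.38 ± 0.12 (limma adjusted p = 0.0371) and -0.3 ± 0.1 without Con,SD array 1 (0.0497). The Dhcr7 call leaned on STZ,SD arrays 2 and 3, with an adjusted p in limma of 0.107 without array 2 and 0.121 without array 3, and log2 differences of -0.32 and -0.29.

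**Figure D2:**
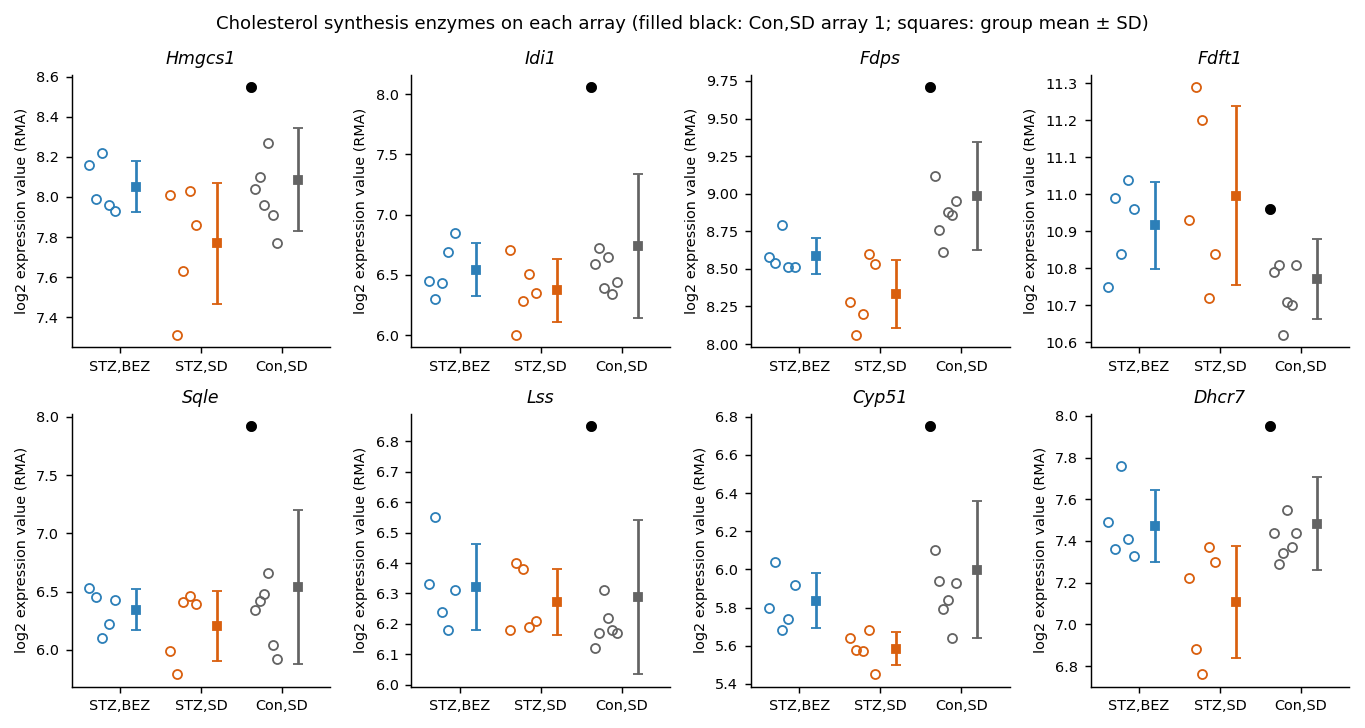
Log2 expression value (RMA) of each enzyme on each array in STZ,BEZ, STZ,SD and Con,SD muscle; circles are mice, squares with bars the group mean ± standard deviation, and the filled black circle Con,SD array 1. Fdps values of STZ,SD, 8.06 to 8.60, lie below all Con,SD values, and Con,SD array 1 is the highest of all arrays for every enzyme except Fdft1. The vertical axes do not start at 0 and differ between panels.

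Within the STZ,SD group the mice were not alike. Arrays 2 and 3 had the lowest Hmgcs1, Idi1, Fdps and Dhcr7 values of the 5 and the highest Fdft1 and Lss values. Sqle and Cyp51 did not follow this split. Sqle was lowest on array 2 (5.79) but stood at 6.41 on array 3, and Cyp51 was lowest on array 5 (5.45). The macrophage marker levels of arrays 2 and 3, 7.23 and 7.13, were also the lowest of the group, whose other 3 arrays lay at 7.5 to 7.88, and their Schwann cell marker levels, 6.91 and 7.01, were the highest, against 6.82 to 6.87. The part of these differences in the enzyme values was not tested within the group. Schwann cell markers averaged 6.89 ± 0.072 (standard deviation, n = 5) in STZ,SD and 6.73 ± 0.102 in Con,SD (n = 7), and with their level as a covariate in the fit, an alternative added after the data were seen, Fdps alone stayed past the threshold, at -0.69 on the log2 scale (limma adjusted p = 0.0408). The differences of Dhcr7 (-0.37) and Fdft1 (0.22) were nearly the same size as without the covariate and that of Cyp51 was -0.35, with adjusted p-values in limma of 0.196, 0.323 and 0.274 for these 3 genes. With the hepatocyte level as a covariate Cyp51, Dhcr7, Fdft1 and Fdps were all called, at log2 differences of -0.22, -0.29, 0.3 and -0.48.

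Bezafibrate was compared in diabetic mice, STZ,BEZ against STZ,SD. No member passed the test, 0 of 8, in a comparison where 4 of 19938 genes, 0.0201%, were called. At an unadjusted p under 0.05, 1 member was higher (Dhcr7) and none lower, against 3.55% of all genes higher, and significance analysis of microarrays (SAM) also called 0 members. The fit takes its spread from all groups, so Con,SD array 1 also enters these errors. With that array left out the differences were the same and no member was called. The unadjusted p in limma was then 0.00338 for Dhcr7, 0.00805 for Cyp51, 0.0256 for Fdps and 0.0305 for Hmgcs1. It was 0.171 for Idi1, 0.343 for Sqle, 0.404 for Fdft1 and 0.467 for Lss. The share of all genes at that p in this second fit was not counted. The log2 differences were above 0 for 7 of 8 members, with a median of 0.21 against 0.0016 over all genes. The groups did not overlap for 1 member, Cyp51, which was higher in STZ,BEZ, against 0.677% of all genes. These values and those against Con,SD share the STZ,SD mice, so they are given side by side only.

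Dhcr7 measured 7.49, 7.36, 7.76, 7.41 and 7.33 in STZ,BEZ, against 7.22, 6.88, 6.76, 7.37 and 7.30 in STZ,SD. Every STZ,BEZ mouse lay above the STZ,SD mean, and arrays 2 and 5 of STZ,BEZ lay below the highest STZ,SD mouse. The log2 difference was 0.36 ± 0.13 (95% interval 0.09 to 0.64), with an unadjusted p of 0.0121 and an adjusted p of 0.778 in limma. Cyp51 measured 5.80, 6.04, 5.68, 5.74 and 5.92 in STZ,BEZ, against 5.64, 5.58, 5.57, 5.68 and 5.45 in STZ,SD. All STZ,BEZ values lay above the highest STZ,SD value, although the nearest pair, both printed as 5.68, differed by less than the last digit. The log2 difference was 0.25 ± 0.15 (limma adjusted p = 0.925; 95% interval -0.056 to 0.56).

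Fdps and Hmgcs1 showed differences of similar size with overlap. Fdps measured 8.58, 8.54, 8.79, 8.51 and 8.51 in STZ,BEZ, against 8.28, 8.06, 8.20, 8.60 and 8.53 in STZ,SD, a log2 difference of 0.25 ± 0.15 (limma adjusted p = 0.938; 95% interval -0.073 to 0.58). The STZ,BEZ mice were within the top of the STZ,SD range except array 3, which lay above it. Hmgcs1 measured 8.16, 7.99, 8.22, 7.96 and 7.93 in STZ,BEZ, against 8.01, 7.31, 7.63, 8.03 and 7.86 in STZ,SD, a log2 difference of 0.28 ± 0.14 (limma adjusted p = 0.898; 95% interval -0.014 to 0.58). All 5 STZ,BEZ mice lay above the STZ,SD mean for both genes.

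The remaining members had smaller differences. Idi1 measured 6.45, 6.30, 6.43, 6.69 and 6.85 in STZ,BEZ, against 6.00 to 6.71 in STZ,SD, and its log2 difference was 0.17 ± 0.24 (95% interval -0.34 to 0.68). Sqle measured 6.53, 6.45, 6.10, 6.22 and 6.43 in STZ,BEZ, against 5.79 to 6.46 in STZ,SD, with a log2 difference of 0.14 ± 0.26 (95% interval -0.41 to 0.69). For both genes the groups covered much the same values. Lss measured 6.33, 6.55, 6.24, 6.18 and 6.31 in STZ,BEZ, against 6.18 to 6.40 in STZ,SD, with a log2 difference of 0.053 ± 0.11 (95% interval -0.19 to 0.29). Fdft1 measured 10.75, 10.99, 10.84, 11.04 and 10.96 in STZ,BEZ, against 10.72 to 11.29 in STZ,SD, with a log2 difference of -0.081 ± 0.098 (95% interval -0.29 to 0.12). Fdft1 was the single member with a value below 0 here, and the adjusted p in limma was 0.997 for each of these 4 genes. The second probe sets gave 0.23 ± 0.26 for Idi1 and -0.14 ± 0.13 for Fdft1. With all arrays the intervals of Sqle and Idi1 were wide, so differences of up to 0.69 and 0.68 on the log2 scale remain within them. Part of that width came from Con,SD array 1, which is in neither group but enters the spread of the fit. Without it the intervals were -0.16 to 0.44 for Sqle and -0.082 to 0.43 for Idi1.

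**Figure D3:**
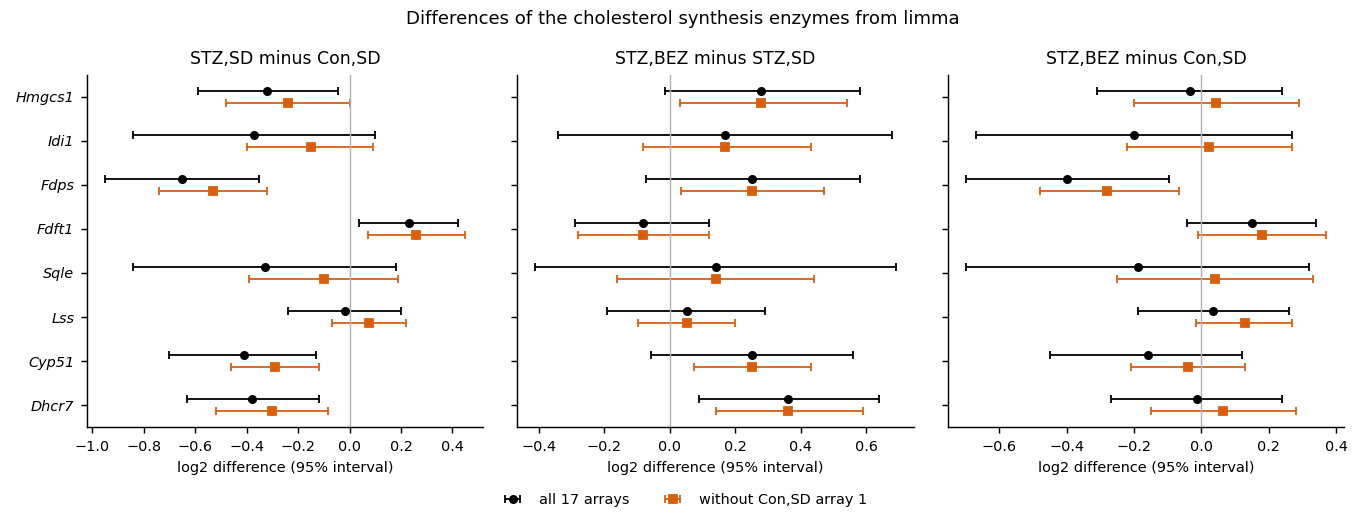
Log2 difference of each enzyme with its 95% interval from limma in the 3 comparisons, with all 17 arrays (black circles) and without Con,SD array 1 (orange squares). In STZ,SD minus Con,SD the Fdps, Cyp51 and Dhcr7 intervals lie below 0 in both fits, Fdft1 lies above 0, and the Idi1 and Sqle values, -0.37 and -0.33, shrink to -0.15 and -0.1 without Con,SD array 1.

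As a summary without a test, the mean log2 value of the 8 members was 7.51, 7.53, 7.51, 7.47 and 7.53 in STZ,BEZ, against 7.37, 7.16, 7.30, 7.45 and 7.37 in STZ,SD. The STZ,BEZ mice lay closer together, with a standard deviation of 0.025 against 0.106 in STZ,SD, and their lowest mean was above the highest of STZ,SD. In Con,SD the same mean was 7.38 at the lowest, 7.53 at the median and 8.34 at the highest, and the 6 arrays other than array 1 lay at 7.38 to 7.60. Hepatocyte markers ran against this order within the diabetic mice, at 7.51 ± 0.296 in STZ,BEZ and 8.08 ± 0.401 in STZ,SD (standard deviation, n = 5 each).

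Bezafibrate-treated diabetic mice were also set against controls, STZ,BEZ against Con,SD. Fdps was the single member called, 1 of 8, and it was lower, in a comparison where 21.6% of all genes were called and 8.45% were called lower. Its log2 difference was -0.4 ± 0.14 (limma adjusted p = 0.0723), and -0.28 ± 0.1 without Con,SD array 1 (0.0668). STZ,BEZ values of 8.51 to 8.79 overlapped the foot of the Con,SD range of 8.61 to 9.71; 2.5% of all genes had STZ,BEZ values all below Con,SD, and no member did. With the hepatocyte level as a covariate the Fdps difference was -0.11 (limma adjusted p = 0.623), and the call was lost in 9 of 31 alternative settings. The other 7 members had log2 differences between -0.2 (Idi1) and 0.15 (Fdft1) with limma adjusted p-values between 0.289 and 0.957. The second Fdft1 probe set was on the other side of 0, at -0.024 ± 0.12, and the second Idi1 probe set gave -0.2 ± 0.24. The median over the 8 members was -0.099, or 0.041 without Con,SD array 1.

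The rest of the sterol pathway was read from 4 lists drawn from its known biology, and fatty acid synthesis was added as a neighbouring Srebf1 pathway. Over these 4 lists together, 16 of 41 measured genes were called in STZ,SD against Con,SD, 39.0% against 25.8% of all genes, with 9 lower and 7 higher. Leaving out Con,SD array 1 gave 13 calls, 9 lower and 4 higher, which was 31.7% against 27.2% of all genes. Of the list of other mevalonate and sterol enzymes, 4 of 11 measured genes fell and 2 rose, beside 11.9% and 13.9% of all genes, with a median log2 difference of -0.11, which was 0.069 without Con,SD array 1 (4 lower and 1 higher). Nsdhl, a sterol dehydrogenase of the demethylation steps, had values of 7.91, 7.36, 7.58, 8.03 and 7.84 in STZ,SD, against 7.75, 8.38 and 8.90 as lowest, median and highest values in Con,SD. With a log2 difference of -0.57 ± 0.16 it was among those that fell (limma adjusted p = 0.0162), and Sc5d, the sterol desaturase that makes the substrate of Dhcr7, fell by 0.50 (0.0469). Pmvk, the phosphomevalonate kinase, fell by 0.21 (limma adjusted p = 0.0442). Lbr, a nuclear envelope protein with sterol reductase activity, measured 9.28, 9.32, 9.20, 9.11 and 9.14 in STZ,SD, against 8.42, 8.67 and 8.97 as lowest, median and highest values in Con,SD. Lbr thus stood above every Con,SD mouse, with a log2 difference of 0.53 ± 0.078 (limma adjusted p = 0.000201), and Lbr also stood above Con,SD in STZ,BEZ mice, by 0.53 (0.000314). Without Con,SD array 1 the differences of STZ,SD from Con,SD were -0.48 for Nsdhl, -0.34 for Sc5d, -0.19 for Pmvk and 0.52 for Lbr, all still called.

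Of 12 measured enzymes of the mevalonate branches, which lead to prenyl groups, ubiquinone and dolichol, 2 fell and 1 rose in STZ,SD against Con,SD (median -0.032), a share close to the 25.8% called over all genes. With Con,SD array 1 left out, 2 fell and 0 rose (median -0.048). Coq2, the prenyltransferase of ubiquinone synthesis, fell by 0.27 (limma adjusted p = 0.00341) and Nus1, a subunit of the dolichol-forming prenyltransferase, by 0.37 (0.0194). Ggps1, which uses the product of Fdps to make geranylgeranyl diphosphate, rose by 0.20 (limma adjusted p = 0.0796), a call that was lost without Con,SD array 1 (0.129). Among 10 measured genes of sterol uptake and transport 2 fell and 3 rose (median -0.00085), beside 11.9% and 13.9% of all genes. Without Con,SD array 1, 2 fell and 2 rose (median 0.021), beside 13.7% and 13.5% of all genes. Vldlr, a lipoprotein receptor, fell by 0.59 (limma adjusted p = 0.00163), and Lrpap1, a chaperone of that receptor family, by 0.24 (0.0116). Gramd1b, which carries sterol to the endoplasmic reticulum, rose by 0.74 (limma adjusted p = 0.00948), and Npc2, the lysosomal sterol carrier, by 0.17 (0.0539). Without Con,SD array 1 these genes other than Ggps1 stayed called, at -0.27 for Coq2, -0.37 for Nus1, -0.63 for Vldlr, -0.23 for Lrpap1, 0.79 for Gramd1b and 0.18 for Npc2.

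Of 8 measured genes of sterol sensing, 1 fell and 1 rose in STZ,SD against Con,SD (median -0.0091), which is about the 25.8% called over all genes. Without Con,SD array 1 it was also 1 lower and 1 higher (median -0.00012), beside 27.2% of all genes. Insig1, which retains the Srebf proteins when sterol is plentiful and is itself a known Srebf target, measured 8.15, 8.43, 8.39, 8.81 and 8.69 in STZ,SD, against 8.81, 8.95 and 9.96 as lowest, median and highest values in Con,SD. All STZ,SD mice lay below all Con,SD mice, although the nearest pair, both printed as 8.81, differed by less than the last digit. The log2 difference was -0.59 ± 0.17 (limma adjusted p = 0.0209), and -0.44 ± 0.11 without Con,SD array 1 (0.0105). Scap, the escort of the Srebf proteins, rose by 0.33 (limma adjusted p = 0.0025), or 0.35 without that array.

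In STZ,BEZ against STZ,SD, where 4 of 19938 genes were called, Srebf1 was the single gene called among 41 measured genes of these 4 lists. It measured 9.97, 9.97, 9.73, 9.70 and 9.60 in STZ,BEZ, against 8.51, 8.49, 8.28, 9.12 and 8.77 in STZ,SD. Every STZ,BEZ mouse exceeded every STZ,SD mouse, with a log2 difference of 1.16 ± 0.13, 2.235-fold higher (limma adjusted p = 0.000732). Insig1 was 0.52 ± 0.18 higher in STZ,BEZ than in STZ,SD but was not called (limma adjusted p = 0.778). The median of the sterol sensing list was 0.068. In Con,SD Srebf1 lay at 8.71, 8.90 and 9.22 as lowest, median and highest values, so STZ,BEZ also lay above Con,SD, by 0.88 ± 0.12 (limma adjusted p = 0.000206). Srebf2, the family member known mainly for sterol genes, was 0.28 ± 0.091 higher in STZ,BEZ than in Con,SD (limma adjusted p = 0.0436). Without Con,SD array 1 these differences from Con,SD were 0.89 for Srebf1 and 0.27 for Srebf2, both still called.

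The fatty acid synthesis list gave medians farther from 0 than the members did. In STZ,SD against Con,SD, 7 of 13 measured genes fell and 0 rose, beside 11.9% and 13.9% of all genes. The list median was a log2 difference of -0.52, or -0.37 without Con,SD array 1. The stearoyl-CoA desaturases Scd1 and Scd2 fell by 2.71 (limma adjusted p = 1.9e-05) and 1.35 (0.000168), and Fasn, the fatty acid synthase, fell by 1.67 (0.000248), against -2.67, -1.41 and -1.67 for Scd1, Scd2 and Fasn without Con,SD array 1. In STZ,BEZ against STZ,SD, where 4 of 19938 genes were called, 2 of 13 rose. These were Scd2, by 1.84 (limma adjusted p = 0.000732), and Scd1, by 2.39 (0.00457). All 13 had differences above 0, with a median of 0.44. Whether the fatty acid genes differed from the cholesterol synthesis enzymes was not tested as a set.

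**Figure D4:**
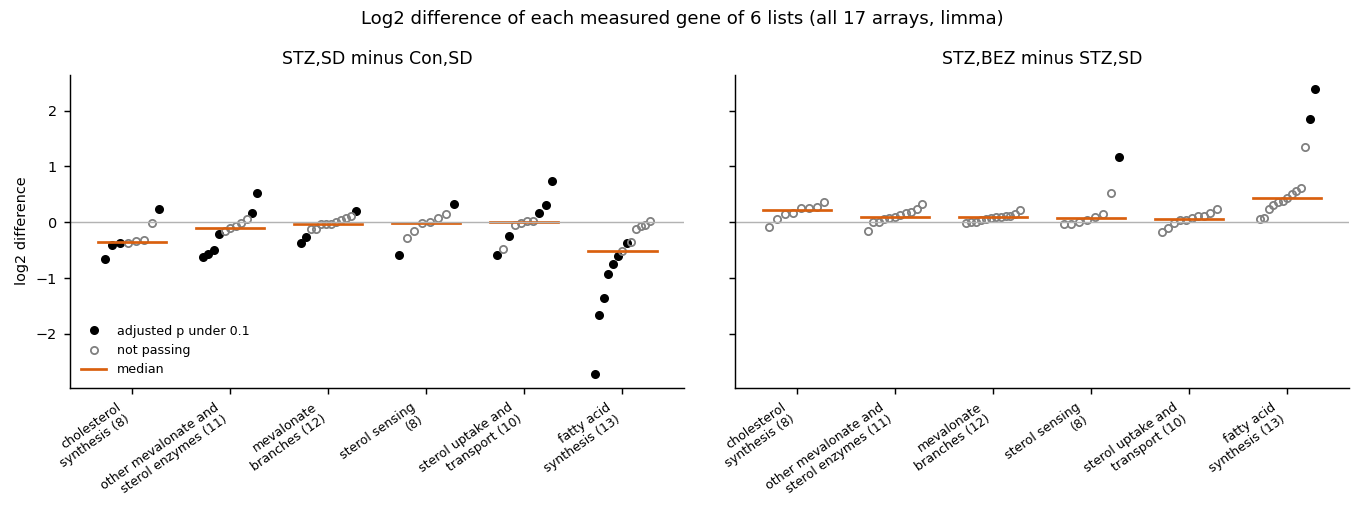
Log2 difference of each measured gene of 6 lists in STZ,SD minus Con,SD and in STZ,BEZ minus STZ,SD, from limma with all 17 arrays; filled points passed an adjusted p under 0.1, open points did not, and orange lines are list medians. Medians of the cholesterol synthesis enzymes are -0.35 and 0.21, those of fatty acid synthesis -0.52 and 0.44, and no cholesterol synthesis enzyme is filled in STZ,BEZ minus STZ,SD.

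Genes whose array-to-array pattern was most like the mean of the members were ranked by Pearson's r after each group's mean was subtracted, as a description over arrays that share their normalisation. Over 17 arrays the 10 most alike were Acsl5 (0.97), Il1rap (0.97), Mttp (0.967), Pabpc2, Sec14l4, Akr1c14, Mia2, Ropn1l, Gtsf1 and Nudt7 (0.958), an order set largely by Con,SD array 1. Over the 16 arrays without it none of these was among the 10, which were Arhgef25 (0.917), Popdc3 (0.866), Dnmt1 (0.853), Cct5 (0.85), Insig2 (0.847), Gpam (0.832), Gpr107, Rpn2, Uxs1 and Crls1 (0.826). The members themselves correlated with their own mean at 0.839 for Hmgcs1, 0.693 for Sqle, 0.665 for Idi1, 0.599 for Fdps, 0.54 for Dhcr7 and 0.433 for Cyp51 over those 16 arrays, while Fdft1 (-0.536) and Lss (-0.332) ran against it. Each member is part of that mean, which raises its own r, so the members' values cannot be compared with those of other genes. In whole muscle, fewer cells of a type and less RNA per cell cannot be told apart for any of these values.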

How the data were processed

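Total RNA of skeletal muscle from 17 mice was hybridised to 1 array each, and 17 arrays limit the precision. The authors normalised the arrays by RMA (Affymetrix Expression Console 1.2, per the labels) and deposited log2 expression values for 35556 probe sets. Of these, 21789 name 1 gene symbol in the platform annotation and gave 19938 genes, 999 of them from several probe sets. RMA takes background and scale from all arrays together, and array medians lay between 6.22 and 6.32.

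Each group was fitted as 1 mean with lmFit and eBayes of limma 3.58.1 (R 4.3.3) on all 17 arrays, without a filter, and a Benjamini-Hochberg adjusted p under 0.1 was called, after the 10% false discovery rate of the study. The fit was tested on simulated data with known changes. Permutation tests of correlations were exact and two-sided (Python 3.11.15, scipy 1.17.1). The labels describe biological replicates, and groups and array numbers come from the labels. The members and lists were chosen with earlier results of these data known. All 8 members are named, then in every comparison at most 4 genes per list, taken by adjusted p, and the 10 genes most like the members' mean. Of 14 other mevalonate and sterol enzymes listed 11 were measured, of 14 genes of uptake and transport 10, of 10 of sterol sensing 8, of 13 of the branches 12 and of 13 of fatty acid synthesis 13; the others were not analysed here. Alternatives changed the scaling, the dim genes, the probe sets, array weights, the groups in the fit, the moderation, a replicate block, marker covariates, the arrays kept and the test (SAM with 100 permutations). Same-numbered arrays did not deviate together: of 15 pairs 0 correlated over 0.1 (range -0.24 to 0.08), and the labels tie no number to a shared animal or day.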

Additional observations from a re-analysis of the deposited data

Results flagged for a closer look

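Of 45 groups of values tested (the 8 members, their mean and 6 marker lists in 3 groups), 8 held a mouse far from the others by Dixon's test, of which chance flags about 1 in 20. Con,SD array 1 was the far mouse in 7 of them. Idi1 stood at 8.06 on that array, against 6.34 to 6.72 on the other Con,SD arrays, and Sqle at 7.92, against 5.92 to 6.66. Lss stood at 6.85 (others 6.12 to 6.31), Cyp51 at 6.75 (5.64 to 6.10) and Dhcr7 at 7.95 (7.29 to 7.55). The mean of the 8 members was 8.34 there (others 7.38 to 7.60) and the testis germ cell level 8.63 (5.71 to 6.17). In STZ,BEZ, array 3 was far from the others for Fdps, at 8.79 against 8.51 to 8.58.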

How the results depend on the processing

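In STZ,SD against Con,SD, Fdps stayed called in all 31 alternative settings (log2 difference -0.72 to -0.48), Cyp51 lost its call in 1, Dhcr7 in 3 and Fdft1 in 20, while Hmgcs1 (-0.42 to -0.2) passed in 9; Idi1 and Sqle kept their sign and never passed. The 4 calls became 1 with the Schwann cell level as a covariate, although the differences of Cyp51 (-0.35), Dhcr7 (-0.37) and Fdft1 (0.22) stayed near those without it, and ranged between 2 (without STZ,SD array 2 or 3) and 5 (without STZ,SD array 4) when arrays were left out in turn. With the replicate block, a model that treats same-numbered arrays as pairs, the 4 calls were Cyp51, Dhcr7, Fdps and Hmgcs1, with Fdft1 at an adjusted p of 0.176 in limma; SAM called the same 4 genes as the block. Lss turned to 0.038 with array weights, 0.099 with the hepatocyte covariate, 0.098 without Con,SD arrays 1, 3 and 4, and 0.052 without Con,SD arrays 1, 2 and 3 (-0.05 to 0.075 with single arrays left out).

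In STZ,BEZ against STZ,SD, 0 members were called in every setting run, and the sign held for every member except Lss, which ran between -0.0026 and 0.089 with single arrays left out. Sizes moved more: with the hepatocyte covariate Idi1 was at 0.38, Sqle 0.33, Lss 0.13, Cyp51 0.38 and Fdft1 -0.034, and without STZ,SD array 2 Hmgcs1 was at 0.17, Idi1 0.081, Sqle 0.037 and Fdft1 -0.0077. In STZ,BEZ against Con,SD, the call of Fdps was absent with the replicate block (0 members), with the Schwann cell covariate (0) and without Con,SD arrays 1, 2 and 3 (0), and the count ranged between 0 and 1 with single arrays left out; it was lost without Con,SD array 2 (limma adjusted p = 0.113) and without STZ,BEZ array 1 (0.11), 2 (0.137), 4 (0.138) or 5 (0.136). The Fdps difference was -0.43 with the block and with the Schwann cell covariate, -0.37 to -0.4 in those single-array settings, -0.24 without Con,SD arrays 1, 2 and 3 and -0.11 with the hepatocyte covariate, against -0.4 with all arrays. With the hepatocyte covariate the 1 call was on Fdft1 and the members' median was 0.2.

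Members not called there changed sign as follows. With the hepatocyte covariate Hmgcs1 was at 0.12, Idi1 0.3, Sqle 0.28, Cyp51 0.16 and Dhcr7 0.14. Without Con,SD arrays 1, 3 and 4 Hmgcs1 was at 0.054, Idi1 0.039, Sqle 0.11 and Dhcr7 0.018, and without Con,SD arrays 1, 2 and 3 Hmgcs1 was at 0.074, Idi1 0.09, Sqle 0.073, Cyp51 0.035 and Dhcr7 0.044. Hmgcs1 was at 0.0044 with array weights and 0.046 with the Schwann cell covariate, and Lss at -0.012 with the replicate block. With single arrays left out Hmgcs1 ran between -0.087 and 0.043, Idi1 between -0.27 and 0.022, Sqle between -0.29 and 0.039, Lss between -0.021 and 0.13 and Dhcr7 between -0.085 and 0.064, the upper ends without Con,SD array 1. The causes were not tested. The Schwann cell and adipocyte covariates and the set without Con,SD arrays 1, 2 and 3 were added after the data were seen. Over all genes, the 5142 calls of STZ,SD against Con,SD were 2033 with the Schwann cell covariate, the 4298 of STZ,BEZ against Con,SD were 2360, and the 4 of STZ,BEZ against STZ,SD were 11 with array weights, 21 with the hepatocyte covariate and 25 by SAM. Groups of 5 and 7 mice limit what differences can be called.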

Other observations

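In STZ,BEZ against Con,SD, 11 of the 41 measured genes of the 4 sterol and mevalonate lists were called, 26.8% against 21.6% of all genes, so the share lies close to that of all genes. Gramd1b, the sterol carrier to the endoplasmic reticulum, was 0.98 ± 0.18 higher on the log2 scale in STZ,BEZ (limma adjusted p = 0.00188) and 1.03 ± 0.18 higher without Con,SD array 1. Vldlr was lower, with a difference of -0.43 ± 0.11 (limma adjusted p = 0.0168), Scap higher by 0.31 ± 0.068 (0.00568), and Pdss2, a subunit of the enzyme that makes the ubiquinone side chain, higher by 0.23 ± 0.059 (0.0154). Each of these 4 remained past the threshold without Con,SD array 1, Vldlr at -0.47, Scap at 0.33 and Pdss2 at 0.23. Among other mevalonate and sterol enzymes Lbr was the single gene called of 11 measured.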
